A study of Homo sapiens with 24 samples.

Results

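Keratins are the intermediate filament proteins of epithelial cells, and their genes were examined here in 3 estrogen receptor-positive (ER+) human breast cancer lines grown at low or high glucose. The 10 genes described were KRT7, KRT8, KRT15, KRT16, KRT17, KRT18, KRT19, KRT80, KRT81 and KRT86, taken by symbol from the 18889 genes of the expression table. Each symbol had exactly 1 row, so all 10 were found. The choice used no measured value, although earlier results of these data were known when it was made. RNA-Seq profiles came from 24 cultures of MDA-MB-175, HCC1500 and ZR-75-30 cells, which are established carcinoma lines kept by a cell repository. Low glucose was 5 mM, the control condition, and high glucose was 25 mM, which models hyperglycemia. Each combination of line and glucose level had 4 cultures, harvested after 48 hours, in flasks of tumor cells alone. Per the study's methods all cultures were kept in serum-free medium and had first been conditioned in low glucose, so both conditions share that history, and each line stands for a single tumor. Values are normalized read counts, that is, whole reads divided by 1 factor per culture, and are given as mean ± SD of n = 4 cultures unless stated otherwise.

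Keratin filaments are built from obligate heterodimers of a type I (acidic) and a type II (basic) chain. KRT8 and KRT18 form the basic pair of simple and luminal epithelium, with KRT7 and KRT19 as further chains of glandular ducts. KRT15, KRT16 and KRT17 belong to basal or stressed stratified epithelium, KRT80 is a type II chain linked to desmosomes in differentiating epithelium, and KRT81 and KRT86 are type II keratins of the hair cortex. In the mammary gland, luminal cells carry KRT8, KRT18 and KRT19, whereas basal and myoepithelial cells carry KRT5, KRT14 and KRT17. KRT5, KRT14, KRT6A and KRT6B were not analysed here.

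The genes lie in the keratin clusters of chromosomes 12 and 17 (GRCh37, protein-coding in each case, spans of the whole gene). On chromosome 12, the plus strand carries KRT7 (chr12:52626304-52645970), KRT86 (chr12:52643084-52702947) and KRT18 (chr12:53342655-53346690), the type I gene that stands in the type II cluster. The minus strand carries KRT80 (chr12:52562780-52585798), KRT81 (chr12:52679697-52685318) and KRT8 (chr12:53290971-53343738). On chromosome 17, KRT15 (chr17:39669997-39678781), KRT19 (chr17:39679869-39684560), KRT16 (chr17:39766030-39772151) and KRT17 (chr17:39775694-39781094) all lie on the minus strand. KRT8 and KRT18 overlap on opposite strands over 525 exon bases of KRT8. The span of KRT86 encloses KRT81, but the annotated exons of KRT81 overlap those of no other gene. The study's methods name a stranded library kit for the tumors. The sources used here do not say whether it served for these lines or whether reads were counted by strand. Reads in an exon overlap such as that of KRT8 and KRT18 therefore cannot be told apart.

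Recovered reads ranged from 9140024 to 17998819 per culture. In HCC1500 the depth of the conditions did not overlap (13190982 to 17998819 reads at low and 9423472 to 12140912 at high glucose). A count of 3 reads, used as the detection floor, corresponded to a normalized read count of 0.953 to 2.29, and floors and intervals from reads cover counting error only. TXNIP, a gene induced by glucose and used as a check of the labels, was higher at high glucose in each line, at 2556 ± 67.8 against 5189 ± 214 in HCC1500, 1939 ± 51.6 against 2540.0 ± 52.3 in MDA-MB-175, and 615 ± 21.9 against 1045 ± 27.3 in ZR-75-30. All 16 luminal epithelial markers, ESR1 and GATA3 among them, had a mean of at least 10 in every group. That list includes KRT7, KRT8, KRT18 and KRT19, which are members described here. The adhesion gene CDH1, also on the list, stood only at 49.0 to 62.0 in ZR-75-30 against at least 5447 in the other lines. The myoepithelial marker CNN1 was under the floor in every culture. Fibroblast markers summed to 79.2 to 296 per culture, led by COL1A1, and the 4 leukocyte markers measured summed to 3.07 to 44.5.

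A single library stood apart and bears on every HCC1500 result. The library labelled HCC1500 high glucose replicate 3 had 13627 normalized reads of KRT8, against 6176 to 6237 in the other high glucose cultures of the line. It was also above them for KRT18 (6712 against 2486 to 2581), KRT19 (13814 against 4773 to 5068) and KRT7 (634 against 228 to 259). Relative to the mean of the others, it was 2.20-fold higher for KRT8, 2.65-fold for KRT18, 2.82-fold for KRT19, 2.57-fold for KRT7, 2.17-fold for KRT15 and 1.16-fold for KRT80. The median gene with a mean of at least 10 in the others was 1.20-fold higher. KRT80, the member least raised in that library among those above the floor, has the longest transcript (3873 bases, against 1390 to 2247 for the others), and the part of transcript length in this was not tested. The library stayed in the tests, and the HCC1500 glucose results of most genes named are also given without it.

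**Figure D1:**
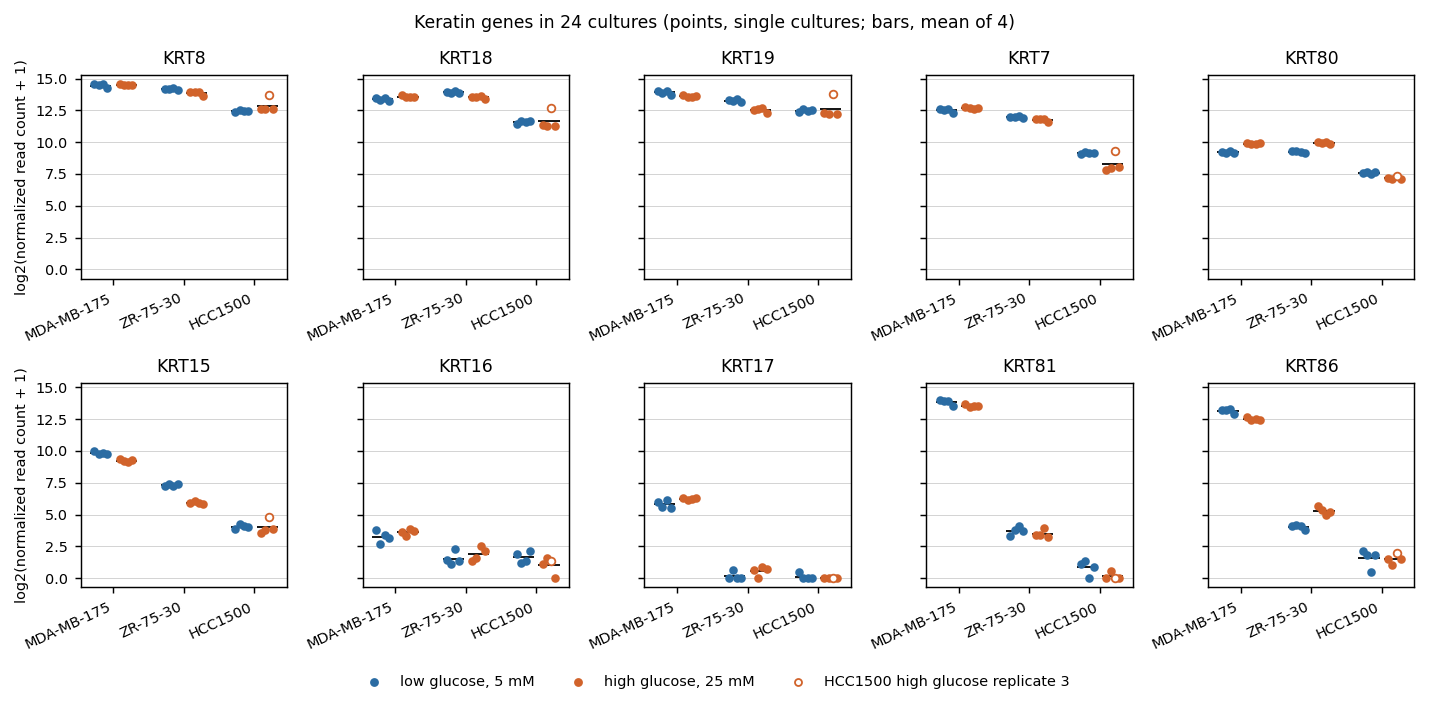
Keratin levels in each culture, with 1 panel per gene, the 3 lines along the x axis and log2(normalized read count + 1) on the y axis. Points are single cultures at low (blue) or high (orange) glucose, bars are group means, and the open circle is HCC1500 high glucose replicate 3, which lies above the other high glucose cultures of its line for KRT8, KRT18, KRT19, KRT7, KRT80 and KRT15. KRT81 and KRT86 exceed 5590 normalized reads in every MDA-MB-175 culture and stay below 52 in every culture of the other lines.

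The first comparison asked how the keratin complement differed between the lines in the control condition. MDA-MB-175 carried luminal keratins together with very high KRT81 and KRT86, ZR-75-30 carried the luminal set without them, and HCC1500 had the lowest levels of KRT8, KRT18, KRT19 and KRT7. The 10 genes took 0.251 to 0.282% of all normalized reads in the low glucose cultures of HCC1500, 0.648 to 0.709% in those of ZR-75-30 and 1.14 to 1.37% in those of MDA-MB-175. By normalized read count, KRT8 stood at rank 10 of 18889 genes in MDA-MB-175, at 31 in ZR-75-30, and at 57 in HCC1500. In the fit of all lines with limma, 9 of the 10 members differed between MDA-MB-175 and ZR-75-30 at an adjusted p under 0.05, beside 73.1% of all genes tested. All 10 differed between MDA-MB-175 and HCC1500, beside 80.6% of genes, and 8 between ZR-75-30 and HCC1500, beside 80.4% of genes. Most genes differed between lines, and the members' counts were close to that background. The median log2 difference over all genes was 0.18 for MDA-MB-175 minus ZR-75-30, -0.063 for MDA-MB-175 minus HCC1500 and -0.25 for ZR-75-30 minus HCC1500, and the differences given are not corrected for it. These are bulk profiles, in which fewer cells with a transcript and less of it per cell cannot be told apart. The labels name replicates without saying how they were separated, so the p-values measure only the spread between these samples, which may be technical.

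Among the luminal keratins at low glucose, KRT8 had 22515 ± 2213 in MDA-MB-175, then 18786 ± 708 in ZR-75-30, and 5623 ± 279 in HCC1500. MDA-MB-175 was 1.20-fold above ZR-75-30 (log2 difference 0.26 ± 0.061, SE, adjusted p = 0.00143) and 4.00-fold above HCC1500 (1.997 ± 0.061, adjusted p = 1.91e-13). KRT18, its type I partner, was ordered differently, with 15720.2 ± 732 in ZR-75-30, then 10536 ± 815 in MDA-MB-175, and 3065 ± 194 in HCC1500. ZR-75-30 thus led for KRT18, 1.49-fold above MDA-MB-175 (adjusted p = 2.29e-07) and 5.13-fold above HCC1500 (adjusted p = 1.07e-14). KRT19, the smallest keratin and one without a fixed type II partner, had 15485 ± 1605 in MDA-MB-175, then 9921 ± 566 in ZR-75-30, and 5693 ± 349 in HCC1500. KRT7 showed the widest spread of these 4 genes, with 5843 ± 542 in MDA-MB-175, then 4093 ± 164 in ZR-75-30, and 578 ± 31.1 in HCC1500, a 10.1-fold difference between the highest and the lowest line (adjusted p = 5.34e-16). For KRT8 single cultures of MDA-MB-175 and ZR-75-30 overlapped (19315 to 24032 and 17979 to 19686), and for KRT18, KRT19 and KRT7 the 3 lines did not overlap.

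KRT80 had 612 ± 41.0 in ZR-75-30, then 589 ± 25.4 in MDA-MB-175, and 192 ± 10.2 in HCC1500. MDA-MB-175 and ZR-75-30 overlapped (564 to 624 and 555 to 649), and their log2 difference was -0.055 with a 95% interval of -0.17 to 0.063 (adjusted p = 0.387). Which line was higher depended on the scaling, with a difference of 0.18 after rescaling to CPM, that is, to a fixed library total (adjusted p = 0.00517) and of -0.15 after median-of-ratios rescaling (adjusted p = 0.0142). Over all genes, the median of this contrast was 0.18 as deposited, 0.26 in CPM and 0.0996 after median-of-ratios rescaling. HCC1500 was 3.07-fold below MDA-MB-175 (adjusted p = 7.07e-13). KRT15, a type I keratin of basal epithelial cells, had 912 ± 71.2 in MDA-MB-175, then 162 ± 10.9 in ZR-75-30, and 15.7 ± 1.85 in HCC1500, and MDA-MB-175 was 5.64-fold above ZR-75-30 (adjusted p = 1.27e-12), itself 10.3-fold above HCC1500 (adjusted p = 2.71e-14). KRT17, a basal and injury-induced chain, was detected in MDA-MB-175, where the 4 cultures had 61.8, 46.2, 68.3 and 44.8. The other lines each had 1 read of KRT17 in their 4 low glucose cultures together, which puts MDA-MB-175 366-fold above ZR-75-30 (95% counting interval 65.8 to 14474) and 592-fold above HCC1500 (106 to 23384). KRT16, induced with KRT17 in stressed epidermis, was at or near the floor in 2 lines and low in the other, at 1.27 to 3.44 in HCC1500, 1.14 to 3.99 in ZR-75-30 and 5.36 to 12.4 in MDA-MB-175.

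The hair keratins separated MDA-MB-175 from the other lines. Its 4 low glucose cultures had 16089, 15175, 15951 and 12120.0 normalized reads of KRT81 and 9682, 9453, 10044 and 7651 of KRT86. ZR-75-30 had 8.86, 12.5, 15.95 and 12.2 of KRT81 and 16.1, 17.1, 16.5 and 12.98 of KRT86, and HCC1500 had 1.14, 1.59, 0 and 0.861 of KRT81 and 3.42, 2.54, 0.383 and 2.58 of KRT86. KRT81 ranked 18 of 18889 genes by normalized read count in MDA-MB-175, between KRT19 at 16 and KRT18 at 33. MDA-MB-175 was 1198-fold above ZR-75-30 for KRT81 (adjusted p = 1.67e-14) and 588-fold for KRT86 (adjusted p = 1.77e-13). Against HCC1500, whose 4 low glucose cultures together had 10 reads of KRT81 and 24 of KRT86, the ratios were 15886 (8638 to 33129) and 4109 (2761 to 6413), with 95% counting intervals. KRT83, the third closely related hair keratin of this cluster, stayed at 2.03 to 5.12 in MDA-MB-175.

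KRT81 and KRT86 are closely related copies with long identical stretches, so a read may belong to either. Their coding sequences (GENCODE transcripts on GRCh37) were aligned over 1454 bases, of which 93.6% were identical, with an unbroken identical run of 605 bases. KRT81 and KRT83 were nearly as alike, at 93.4%, but their longest identical run was 95 bases. Of all 50-base words in the KRT81 transcript, 38.4% also occur in transcripts of KRT86, 9.04% in the pseudogene KRT87P and 6.22% in KRT83. Of those in KRT86, 32.8% occur in KRT81 and 7.69% in KRT87P. KRT87P, measured under the symbol KRT121P, had 34.6 to 60.2 at low and 24.7 to 36.2 at high glucose in MDA-MB-175. In the other lines it had at most 0.767 in any culture. KRT8 and KRT18 share 39.2% and 36.7% of their 50-base words with transcripts of other genes, mainly pseudogenes of their own. The pseudogene KRT8P3, in which 22.8% of the KRT8 words occur, stood at 11.1 to 18.8 as group means. Another, KRT8P12, stood at 28.4 to 52.3, against at least 5623 for KRT8. KRT16 shared 21.8% and KRT17 17.4%, whereas KRT7, KRT15, KRT19 and KRT80 each shared under 2%. How the authors' counting treated reads with several matches is not given in the sources used here. The values of KRT81, KRT86, KRT8, KRT18, KRT16 and KRT17 are uncertain to that extent.

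To set members beside each other, values were divided by the length of the principal transcript (normalized reads per kb). In MDA-MB-175 at low glucose the order was KRT8 (12620.4 ± 1240.2), KRT19 (11141 ± 1155), KRT81 (7689.9 ± 961), KRT18 (7457 ± 577), KRT86 (4098 ± 474) and KRT7 (3596 ± 334). The ranges overlapped between KRT8 and KRT19, between KRT81 and KRT18 and between KRT86 and KRT7, and the step from KRT7 down to KRT15 (533 ± 41.6) was clear. In ZR-75-30 the order was KRT18 (11125 ± 518), KRT8 (10530.5 ± 397), KRT19 (7137 ± 407) and KRT7 (2519 ± 101), and KRT18 and KRT8 overlapped. In HCC1500 it was KRT19 (4096 ± 251), KRT8 (3152 ± 156), KRT18 (2169 ± 137) and KRT7 (356 ± 19.1), with no overlap between neighbors. Dividing by the union of all annotated exons instead, which for KRT8 is 6881 bases rather than 1784, put KRT81 first in MDA-MB-175 (7689.9 per kb) and KRT19 second (6629), so this order rests on the choice of transcript.

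The summed level per kb of the 5 type II members relative to the 5 type I members also set the lines apart. In MDA-MB-175 at low glucose type II exceeded type I in every culture, with ratios of 1.45, 1.54, 1.47 and 1.40, whereas in ZR-75-30 the ratio was 0.709 to 0.731 and in HCC1500 0.557 to 0.575. Without KRT81 and KRT86 the type II sum in MDA-MB-175 was 14098 to 17504 per kb, beside a type I sum of 16937 to 20771. The ratio of KRT8 to KRT18 per kb was 0.932 to 0.962 in ZR-75-30, 1.41 to 1.49 in HCC1500 and 1.60 to 1.77 in MDA-MB-175. The level of these ratios depends on the transcript lengths used, while differences between cultures in the KRT8 to KRT18 ratio do not.

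**Figure D2:**
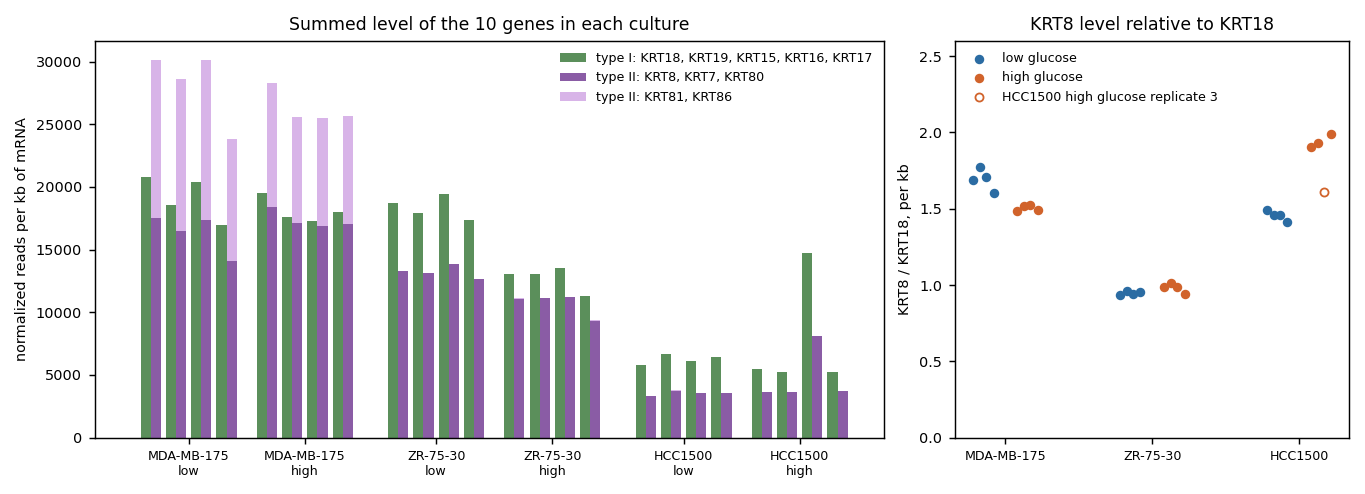
Summed keratin levels by chain type and the balance of KRT8 and KRT18. Left, bars start at 0 and give, for each of the 24 cultures, normalized reads per kb of principal transcript summed over the 5 type I genes (green) and the 5 type II genes (purple, with KRT81 and KRT86 in light purple, visible in MDA-MB-175). Right, the ratio of KRT8 to KRT18 per kb in each culture at low (blue) and high (orange) glucose, which spans 1.60 to 1.77 at low and 1.48 to 1.52 at high glucose in MDA-MB-175.

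The second comparison asked how hyperglycemia altered keratin expression in MDA-MB-175. High glucose raised KRT80, KRT17, KRT18 and KRT7 and lowered KRT15, KRT86, KRT19 and KRT81, so 8 of 10 members were called at an adjusted p under 0.05, 4 in each direction. Over all genes, 11.9% were called higher and 13.7% lower. The median log2 difference of the members was 0.12, beside -0.023 for all genes tested. The widest changes were the 1.60-fold rise of KRT80 and the 1.56-fold fall of KRT86.

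Of the luminal keratins, KRT8 had 24032, 22752, 23959.7 and 19315 at low and 24675, 22969, 22765 and 22593 at high glucose. The conditions overlapped, and the log2 difference was 0.051 ± 0.062 (SE), with a 95% interval of -0.081 to 0.18 (adjusted p = 0.605). KRT18 had 11293, 10180.3, 11115 and 9557 at low and 13182, 11984, 11853 and 12009.5 at high glucose. The lowest high glucose value exceeded the highest low glucose value, a 1.16-fold rise (log2 difference 0.22 ± 0.055, adjusted p = 0.00686). The ratio of KRT8 to KRT18 per kb was 1.60 to 1.77 at low and 1.48 to 1.52 at high glucose, with no overlap. KRT19 had 16881, 15052, 16606 and 13402 at low and 13509, 12165, 11864 and 12625 at high glucose, a 1.23-fold fall that passed the test although single cultures overlapped (log2 difference -0.30 ± 0.065, adjusted p = 0.00261). KRT7 rose 1.13-fold, from 5843 ± 542 to 6624 ± 277 (log2 difference 0.18 ± 0.058, adjusted p = 0.0272). Its call was lost when low glucose replicate 2 or high glucose replicate 1, 2 or 4 was left out, with adjusted p between 0.0532 and 0.0778. Low glucose replicate 4 had the lowest value of its group for all 4 of these genes.

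KRT80 showed the clearest rise, from 584, 582, 624 and 564 at low to 953, 910.0, 945 and 960.0 at high glucose, a log2 difference of 0.68 ± 0.044 (adjusted p = 1.29e-08). The groups were separated by more than the range within either. KRT15 moved the other way, from 1003, 861, 935 and 850.0 to 655, 594, 563 and 617, a 1.50-fold fall without overlap (log2 difference -0.59 ± 0.059, adjusted p = 1.86e-06). KRT17 rose 1.36-fold from 61.8, 46.2, 68.3 and 44.8 to 79.0, 71.6, 73.4 and 76.2 (log2 difference 0.46 ± 0.13, adjusted p = 0.0169), and without low glucose replicate 2 the adjusted p was 0.0556. KRT16 had 8.90 ± 2.96 and 11.5 ± 1.91 normalized reads, 8 to 35 reads per culture, and its log2 difference of 0.38 ± 0.25 did not pass the test (adjusted p = 0.306).

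KRT81 and KRT86 both fell at high glucose, but by unequal amounts. KRT81 went from 16089, 15175, 15951 and 12120.0 to 13433, 11506, 11706 and 11769.8, and only low glucose replicate 4 overlapped with the high glucose cultures (log2 difference -0.29 ± 0.076, adjusted p = 0.0109). KRT86 went from 9682, 9453, 10044 and 7651 to 6611, 5590.4, 5747 and 5673 without overlap (log2 difference -0.64 ± 0.073, adjusted p = 7.91e-06). The ratio of KRT86 to KRT81 in the same culture, which no library factor can move, was 0.602, 0.623, 0.630 and 0.631 at low and 0.492, 0.486, 0.491 and 0.482 at high glucose. Reads exchanged between these copies would tie their values together, and the part of such reads in either value was not tested.

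**Figure D3:**
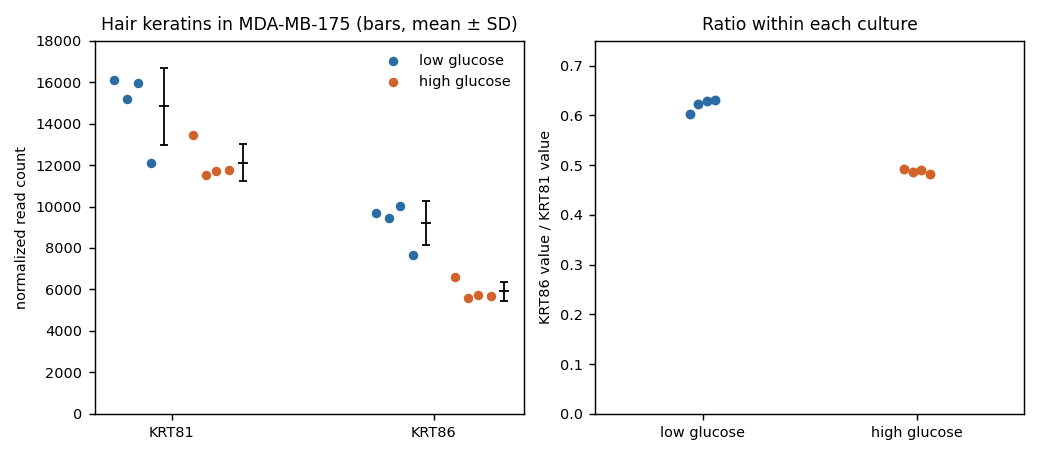
KRT81 and KRT86 in MDA-MB-175. Left, normalized read counts of single cultures at low (blue) and high (orange) glucose with mean ± SD beside them. Right, the KRT86 value divided by the KRT81 value in each culture, 0.602 to 0.631 at low and 0.482 to 0.492 at high glucose, so the groups do not overlap.

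In ZR-75-30 the luminal keratins fell together. KRT8, KRT18, KRT19, KRT7 and KRT15 were lower at high glucose, and KRT80 and KRT86 were higher. The 5 lower and 2 higher calls among 10 members stand beside 22.7% of all genes called lower and 23.4% called higher. The members' median log2 difference was -0.24, and that of all genes 0.012. The 10 genes' part of all normalized reads was 0.648 to 0.709% at low and 0.452 to 0.517% at high glucose.

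KRT8 had 18877, 18603, 19686 and 17979 at low and 15403, 15499.6, 15529.6 and 12854 at high glucose, a 1.27-fold fall (log2 difference -0.35 ± 0.055, adjusted p = 4.19e-05). KRT18 had 16048, 15312, 16576 and 14945 at low and 12349.5, 12105, 12441 and 10782 at high glucose, a 1.32-fold fall (-0.40 ± 0.048, adjusted p = 1.77e-06). Their ratio per kb overlapped between conditions, at 0.932 to 0.962 at low and 0.944 to 1.01 at high glucose. KRT19 fell further, 1.68-fold from 10123, 9726, 10582 and 9252 to 5900.3, 6183, 6503 and 5098 (-0.75 ± 0.06, adjusted p = 8.32e-09), and its level per kb relative to KRT18 was 0.629 to 0.649 at low and 0.481 to 0.531 at high glucose. KRT7 fell 1.19-fold, from 4093 ± 164 to 3453 ± 249.5 (-0.25 ± 0.047, adjusted p = 0.000291). Replicate 4 had the lowest value of its group for each of these 4 genes at both glucose levels. Leaving out either of these cultures ended no call in this line.

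KRT15 had the largest fall of the members, 2.69-fold, from 155, 169, 150.4 and 173 to 59.4, 64.1, 59.9 and 56.9 (log2 difference -1.41 ± 0.086, adjusted p = 2.48e-10). KRT80 rose 1.61-fold from 632, 649, 611 and 555 to 1013, 992, 1030.2 and 917 (0.69 ± 0.051, adjusted p = 2.89e-09). KRT86 rose from 16.1, 17.1, 16.5 and 12.98 to 51.0, 39.8, 30.2 and 35.0, which is 17 to 30 reads per culture at low and 51 to 98 at high glucose. The rise was 2.49-fold (1.24 ± 0.19, adjusted p = 2.60e-05). KRT81 in the same cultures had 8.86, 12.5, 15.95 and 12.2 and 9.37, 9.45, 14.4 and 8.22, with overlap (-0.24 ± 0.25, 95% interval -0.77 to 0.29, adjusted p = 0.474). KRT16 stayed at 1.14 to 3.99 and 1.56 to 4.67, and KRT17 had at most 2 reads in any culture, under the floor. The type II to type I ratio per kb was 0.709 to 0.731 at low and 0.826 to 0.855 at high glucose.

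**Figure D4:**
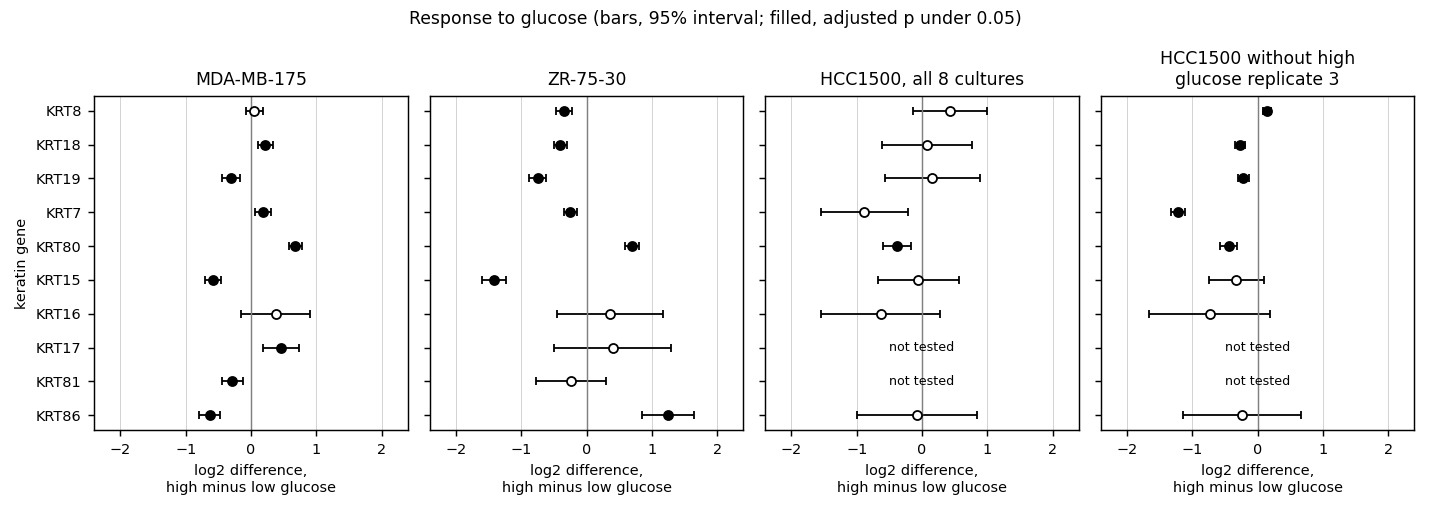
Log2 difference between high and low glucose for the 10 keratin genes (rows), with 1 panel per line and a last panel for HCC1500 without high glucose replicate 3. Points are limma estimates on the log2(value + 1) scale, bars are 95% intervals before adjustment over genes, and filled points have an adjusted p under 0.05. KRT80 is at 0.68 in MDA-MB-175 and 0.69 in ZR-75-30, and at -0.39 in HCC1500, where its interval narrows once replicate 3 is left out.

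In HCC1500 the answer depended on high glucose replicate 3. With all 8 cultures, KRT80 was the 1 member called, lower at high glucose, beside 13.0% of all genes called lower and 7.46% called higher. Without that library 5 members were called, KRT7, KRT18, KRT19 and KRT80 lower and KRT8 higher, beside 37.7% of genes lower and 20.9% higher. KRT17 and KRT81 did not pass the filter on low values (at least 0.5 in at least 4 cultures) in this line and were not tested. The split over all genes with all 8 cultures, 1221 higher and 2129 lower, became 1726 and 1802 after median-of-ratios rescaling. The members' median log2 difference was -0.069 with and -0.30 without the library, beside -0.064 and -0.12 for all genes tested.

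KRT7 had 539.7, 615, 574 and 583 at low and 228, 253, 634 and 259 at high glucose. With all cultures the log2 difference was -0.88 ± 0.29 (adjusted p = 0.0655), and without replicate 3, whose value was the highest of the 8 cultures, it was -1.22 ± 0.052, a 2.34-fold fall (adjusted p = 8.79e-13). KRT8 had 5274, 5946, 5578 and 5693 at low and 6202, 6176, 13627 and 6237 at high glucose, so the conditions did not overlap and high glucose was the higher. Its log2 difference was 0.43 ± 0.25 with all cultures (adjusted p = 0.268) and 0.14 ± 0.031 without replicate 3 (adjusted p = 0.000683). KRT18 had 2805, 3227, 3029 and 3198 at low and 2581, 2532, 6712 and 2486 at high glucose, and its log2 difference turned from 0.079 ± 0.30 (adjusted p = 0.888) to -0.27 ± 0.038 without replicate 3 (adjusted p = 6.58e-06). KRT19 had 5314, 6109.6, 5522 and 5829 at low and 5068, 4773, 13814 and 4845 at high glucose, and turned likewise from 0.16 ± 0.32 (adjusted p = 0.780) to -0.22 ± 0.037 (adjusted p = 6.53e-05).

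Replicate 3 moved the balance of KRT8 and KRT18 less than their levels. Their ratio per kb was 1.49, 1.46, 1.46 and 1.41 at low and 1.90, 1.93, 1.61 and 1.99 at high glucose, without overlap with or without that culture. KRT80 had 189.6, 198, 179 and 202 at low and 147, 137, 163 and 139 at high glucose, a 1.31-fold fall without overlap (log2 difference -0.39 ± 0.094, adjusted p = 0.0204), and -0.44 ± 0.062 without replicate 3 (adjusted p = 7.48e-06). The call was lost without low glucose replicate 1, 2 or 4 or high glucose replicate 2 or 4, with adjusted p between 0.0575 and 0.0735 and log2 differences between -0.39 and -0.35. KRT15 was low here, at 13.3, 17.8, 16.1 and 15.5 at low and 10.6, 12.4, 26.7 and 13.8 at high glucose, and did not pass the test in either fit (adjusted p = 0.908 and 0.170). KRT16 (1.27 to 3.44 and 0 to 1.99) and KRT86 (0.383 to 3.42 and 0.995 to 2.97) were near the floor with adjusted p of 0.311 and 0.919, or 0.166 and 0.648 without replicate 3, and a change in them was not detectable at this depth.

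**Figure D5:**
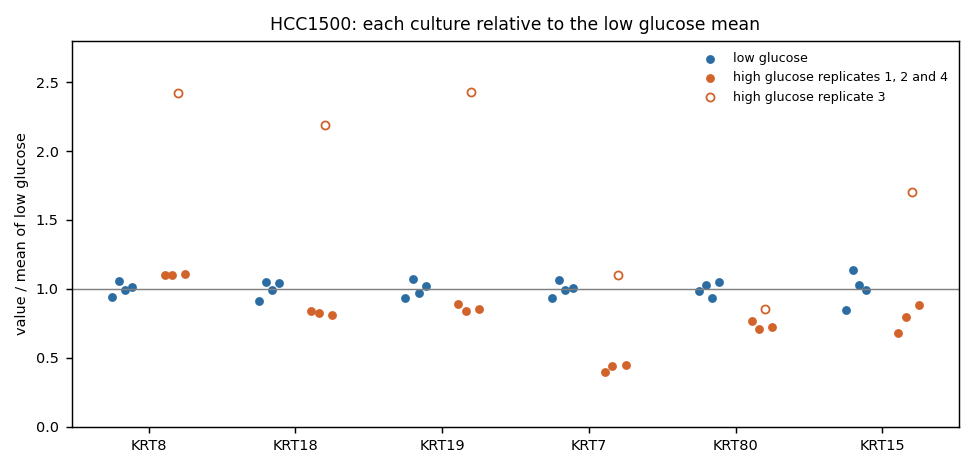
The 6 of the 10 genes with the highest levels in HCC1500, each culture divided by the gene's mean at low glucose (y axis, linear, from 0). Blue points are low glucose cultures, filled orange points high glucose replicates 1, 2 and 4, and the open circle is high glucose replicate 3, at 2.42 for KRT8 and 1.10 for KRT7, where the other high glucose cultures lie at 1.10 to 1.11 and 0.395 to 0.449.

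Whether the response to glucose differed between the lines was tested as an interaction in 1 fit of all 24 cultures. The response of KRT7, KRT8, KRT15, KRT80 and KRT86 differed between lines, 5 of 10 members, beside 29.3% of all genes tested. Without HCC1500 high glucose replicate 3, KRT18 and KRT19 were called too, 7 of 10, beside 48.6% of genes. KRT80 differed most (F test, adjusted p = 4.00e-09). In ZR-75-30 and MDA-MB-175 its responses did not differ beyond the error (difference of log2 differences 0.013 ± 0.088, 95% interval -0.17 to 0.20). HCC1500 and MDA-MB-175 differed by -1.07 ± 0.088 (adjusted p = 1.44e-08). KRT86 (adjusted p = 0.00102) fell in MDA-MB-175 and rose in ZR-75-30, a difference of 1.88 ± 0.36. KRT15 (adjusted p = 0.000475) fell further in ZR-75-30 than in MDA-MB-175, by -0.83 ± 0.24. KRT7 (adjusted p = 0.0131) responded differently in HCC1500 than in MDA-MB-175, by -1.07 ± 0.27. The KRT8 call was marginal, at an adjusted p of 0.0439, and it was lost on leaving out any of 19 of the 24 cultures in turn, with adjusted p between 0.0522 and 0.0898. It held without MDA-MB-175 low glucose replicate 4 or any single high glucose culture of HCC1500.

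Without HCC1500 high glucose replicate 3 the standard errors of both contrasts with MDA-MB-175 were smaller for KRT7, KRT8, KRT15, KRT18, KRT19, KRT80 and KRT86 and larger for KRT17. The HCC1500 difference was then -1.12 ± 0.073 for KRT80 and -1.41 ± 0.089 for KRT7, and the F test of KRT8 had an adjusted p of 0.000127. The difference between the ZR-75-30 and MDA-MB-175 responses, whose size that library does not enter, was -0.62 ± 0.28 for KRT18 with all cultures (adjusted p = 0.177) and -0.62 ± 0.077 without it (adjusted p = 1.65e-06). For KRT19 it was -0.45 ± 0.30 (adjusted p = 0.420) and -0.45 ± 0.10 (adjusted p = 0.00130). Within the single lines KRT19 was called lower at high glucose in MDA-MB-175, ZR-75-30 and, without replicate 3, HCC1500, and no other member was called in the same direction in all 3. In the F test of the difference between lines, KRT19 was also called on leaving out HCC1500 high glucose replicate 1, 2 or 4. The adjusted p of that test were then 0.0451, 0.0334 and 0.0366. KRT16, KRT17 and KRT81 were not called in this test, and each was at or near the floor in at least 1 line, which limits what it could show.

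The other keratins of the table gave little further signal. Of the 8 further keratins measured, 3 (KRT4, KRT10 and KRT23) had a mean of at least 10 in any group. The calls among them were KRT4 in MDA-MB-175 (1 of 3 type II genes tested), KRT23 in ZR-75-30 (1 of 2 type I genes tested) and KRT83 in HCC1500 (the 1 type II gene tested), all lower at high glucose. Without replicate 3, KRT10 was called higher in HCC1500 (1 of 3 type I genes tested). The KRT83 values in HCC1500 were 6.46 to 9.04 at low and 2.77 to 4.72 at high glucose (log2 difference -0.76 ± 0.21, adjusted p = 0.0375), and the difference was -0.81 ± 0.28 without replicate 3 (adjusted p = 0.0183). KRT23, a type I keratin of glandular epithelium, fell in ZR-75-30 from 233 ± 13.7 to 142 ± 19.6 (log2 difference -0.73 ± 0.085, adjusted p = 1.26e-06), and in MDA-MB-175 had 122 ± 8.97 and 136 ± 6.05 (adjusted p = 0.146). KRT4, the type II chain of mucosal stratified epithelium, fell in MDA-MB-175 from 261 ± 22.00 to 227 ± 4.21 (-0.20 ± 0.065, adjusted p = 0.0339) and was under the floor in every HCC1500 culture. KRT10, the type I chain of differentiating epidermis, had 95.2 ± 3.62 and 98.0 ± 13.01 in MDA-MB-175 and 54.1 ± 12.3 and 49.3 ± 2.12 in ZR-75-30, neither called. In HCC1500 it had 122, 104, 98.6 and 107 at low and 163, 160.2, 445 and 175 at high glucose, with a log2 difference of 0.98 ± 0.31 (adjusted p = 0.0562) that was 0.62 ± 0.078 without replicate 3 (adjusted p = 1.61e-06).

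Keratin filaments attach to desmosomes through plakins and armadillo proteins and are tended by small heat shock proteins, and 35 of 37 such filament partners were measured. Their counts stand beside the shares of all genes called, 11.9% higher and 13.7% lower for MDA-MB-175 and 23.4% higher and 22.7% lower for ZR-75-30. For HCC1500 the shares were 7.46% and 13.0%, or 20.9% and 37.7% without replicate 3. In MDA-MB-175, 5 of 34 tested were called higher and 9 lower (median log2 difference -0.055, all genes -0.023). In ZR-75-30, 8 were higher and 12 lower of 34 (median -0.068, all genes 0.012). In HCC1500, 1 was higher and 7 lower of 34 (median -0.16, all genes -0.064), or 5 and 22 of 33 without replicate 3 (median -0.24, all genes -0.12). HSPB8, a small heat shock protein, rose in MDA-MB-175 from 264 ± 23.8 to 683 ± 29.5 (log2 difference 1.37 ± 0.062, adjusted p = 1.86e-10), and its relative HSPB1, a known keratin chaperone, rose in ZR-75-30 from 599 ± 21.8 to 1519 ± 100.2 (log2 difference 1.34 ± 0.047, adjusted p = 1.74e-13). The desmosomal cadherin DSC2 rose in ZR-75-30 from 26.6 ± 5.19 to 60.6 ± 5.71 (log2 difference 1.17 ± 0.15, adjusted p = 4.03e-06), and likewise in MDA-MB-175, from 27.6 ± 2.08 to 55.5 ± 7.87 (log2 difference 0.97 ± 0.13, adjusted p = 5.19e-05). PKP1, a desmosomal plaque protein that binds keratin, fell in MDA-MB-175 from 61.9 ± 6.32 to 27.0 ± 2.29 and in HCC1500 from 122 ± 6.86 to 24.1 ± 3.16 (log2 difference -2.30 ± 0.13, adjusted p = 3.19e-05), a difference of -2.32 ± 0.11 without replicate 3 (adjusted p = 6.41e-12). LMNB1, the nuclear lamina filament protein, fell in all 3 lines, in MDA-MB-175 from 796 ± 7.03 to 559 ± 18.5, in HCC1500 from 668 ± 12.5 to 263 ± 13.5 (260.2 ± 14.7 without replicate 3) and in ZR-75-30 from 601 ± 27.1 to 228 ± 14.6. NES, another intermediate filament gene, fell in HCC1500 from 11.2 ± 0.321 to 4.96 ± 1.59 (log2 difference -1.07 ± 0.23, adjusted p = 0.0124), and the difference was -1.05 ± 0.26 without replicate 3 (adjusted p = 0.00231). Without replicate 3, LMNB2 and FAM83H, which organizes keratin filaments, were also called lower in all 3 lines, their adjusted p in HCC1500 being 0.0575 and 0.177 with all cultures.

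Of 32 transcription factors known to act on keratin genes or epithelial identity, 31 were measured. In MDA-MB-175, 7 of 29 tested were called higher and 9 lower (median log2 difference 0.017), beside 11.9% and 13.7% of all genes. In ZR-75-30 these counts were 5 and 9 of 29 (median -0.075), beside 23.4% and 22.7% of all genes. In HCC1500 they were 7 and 3 of 29 (median 0.055), beside 7.46% and 13.0%, or 12 and 9 without replicate 3 (median 0.037), beside 20.9% and 37.7%. The all-gene medians given for the filament partners apply here too. ELF3, an epithelium-specific ETS factor, was the 1 regulator called in the same direction in all 3 lines. It rose from 2059 ± 153 to 3281 ± 101 in MDA-MB-175 (log2 difference 0.67 ± 0.049, adjusted p = 4.98e-08), from 859 ± 22.3 to 1928 ± 144 in ZR-75-30 (log2 difference 1.16 ± 0.047, adjusted p = 1.11e-12) and from 607 ± 32.7 to 1164 ± 365 in HCC1500 (log2 difference 0.89 ± 0.18, adjusted p = 0.00960). Without replicate 3 the HCC1500 high glucose mean was 983 ± 60.6 (log2 difference 0.69 ± 0.045, adjusted p = 3.32e-10). FOXA1, the luminal pioneer factor, was then also called in all 3 lines, lower in each, whereas its adjusted p in HCC1500 with all cultures was 0.719.

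The other regulators named had the widest called changes within a line, and their values there do not bear on whether the lines differed. In MDA-MB-175, ELF5, an ETS factor of luminal progenitors, rose from 236 ± 22.4 to 343 ± 21.97 (log2 difference 0.54 ± 0.07, adjusted p = 2.74e-05), and FOSL1, an AP-1 subunit, was low and went from 2.62 ± 1.70 to 6.04 ± 1.89 (log2 difference 1.06 ± 0.37, adjusted p = 0.0462). In ZR-75-30, the AP-1 subunit JUN fell from 741 ± 28.2 to 395 ± 19.3 (log2 difference -0.90 ± 0.047, adjusted p = 2.98e-11), and GRHL3, a factor of epidermal differentiation, fell from 39.9 ± 5.74 to 21.7 ± 2.42 (log2 difference -0.84 ± 0.16, adjusted p = 0.000359). In HCC1500, the Kruppel-like factor KLF4 rose from 38.5 ± 4.07 to 81.4 ± 15.7 (log2 difference 1.05 ± 0.15, adjusted p = 0.00219), and HOXC13, which drives hair keratin genes in the follicle, rose from 103 ± 8.36 to 218 ± 65.6 (log2 difference 1.04 ± 0.18, adjusted p = 0.005003) while KRT81 and KRT86 stayed near the floor. ZEB1, a repressor of epithelial genes, rose there from 4.22 ± 0.377 to 12.7 ± 4.31 (log2 difference 1.33 ± 0.27, adjusted p = 0.0101). Without replicate 3 these differences were 0.92 ± 0.11 for KLF4 (adjusted p = 1.40e-06), 0.85 ± 0.074 for HOXC13 (adjusted p = 1.56e-08) and 1.58 ± 0.24 for ZEB1 (adjusted p = 1.90e-05). The widest changes without that library also took in TWIST1, which fell from 32.8 ± 2.37 to 14.7 ± 1.28, and KLF5, which rose from 71.3 ± 6.60 to 143 ± 7.62 (log2 difference 0.997 ± 0.087, adjusted p = 1.66e-08). With all cultures the differences of TWIST1 and KLF5 were -0.85 ± 0.25 (adjusted p = 0.0402) and 0.91 ± 0.13 (adjusted p = 0.00155).

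Marker lists of epithelial states were set beside the keratins. Over all genes, 11.9% were called higher and 13.7% lower in MDA-MB-175, and 23.4% and 22.7% in ZR-75-30. In HCC1500 these shares were 7.46% and 13.0%, or 20.9% and 37.7% without replicate 3. Of the 16 luminal markers, which include KRT7, KRT8, KRT18 and KRT19, 3 were called higher and 7 lower in MDA-MB-175. In ZR-75-30, 2 were higher and 10 lower, and the list summed to 94698 to 99901 at low and 66195 to 74672 at high glucose. In HCC1500, 1 was higher and 1 lower, or 5 and 11 without replicate 3. Of the basal and myoepithelial markers, 13 of 17 were measured, KRT17 among them. In MDA-MB-175, 3 of 12 tested were called higher and 1 lower, and the list summed to 1126 to 1303 at low and 1291 to 1370.0 at high glucose. In ZR-75-30, 3 of 11 were higher and 0 lower, with sums of 568 to 662 and 757 to 819. In HCC1500, 2 of 10 were higher and 1 lower with or without replicate 3, and the sums were 887 to 925 at low and 538 to 767 at high glucose, or 674 to 767 at high glucose without replicate 3. The lower gene there was LAMA3, a laminin chain that led the sum. It went from 750.1 ± 15.6 to 443 ± 109, or to 496 ± 31.3 without replicate 3. The cadherin CDH3 rose from 94.3 ± 4.30 to 162 ± 17.5, or to 155 ± 9.80 without replicate 3.

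Of the cornification markers, 10 of 16 were measured, KRT10 among them. The shares of all genes called that stand beside the basal marker counts apply here too. In MDA-MB-175, 4 of 10 were called higher and 1 lower, and the sums were 606 to 640.5 and 917 to 972, with SPRR3, a cornified envelope protein, rising from 156 ± 16.6 to 391 ± 27.2. In ZR-75-30, 1 of 5 was higher and 1 lower, and the sums were 164 to 208 and 106 to 119, with the transglutaminase TGM3 as the lower gene, which fell from 113 ± 11.5 to 31.00 ± 3.83. In HCC1500, 0 of 4 were higher and 1 lower, or 1 and 2 without replicate 3, and the sums were 227 to 256 and 236 to 587. The upper end was replicate 3, in which KRT10 alone had 445, and without it the high glucose sums were 236 to 254. The leukocyte markers summed to 5.54 to 6.84 and 34.4 to 44.5 in ZR-75-30, led by CD68, a lysosomal gene. The part of these markers in the keratin values was not tested.

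The genes most like each member over the 24 cultures were found by Pearson correlation of log2(value + 1), as a description. The cultures share 3 lines, so the values follow the differences between lines. KRT81 and KRT86 had the same nearest gene, FAM126A, at 0.996 for KRT81 and 0.994 for KRT86, and KRT17 had SLIT3 (0.996) and VGLL1 (0.995). KRT8 was followed most closely by CLDN4 (0.994) and ENO1 (0.991), KRT18 by SNRPB (0.990) and TALDO1 (0.988), KRT19 by ORMDL3 (0.975) and CLN6 (0.974) and KRT7 by BPIFB1 (0.993) and SLC50A1 (0.992). KRT80 was nearest to SCRN1 (0.991) and GBP2 (0.981), KRT15 to MAPK11 (0.991) and AKR1B1 (0.990) and KRT16, with few reads, to TUBB4A (0.928) and DGKA (0.908).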

How the data were processed

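RNA-Seq was analysed in 24 cultures, 4 for each of 3 lines at 5 or 25 mM glucose for 48 hours, grouped by their sample titles. The deposited table holds normalized expression (unit: signal) for 18889 genes. The authors' methods, written for tumors, name Trimmomatic, TopHat, hg19 with Ensembl genes, DESeq2 and edgeR, whereas the submitters' processing notes name hg38 and edgeR, and which build these values come from is not given in the sources used here. The methods also describe a stranded TruSeq mRNA kit for the tumors and CPM scaled by TMM factors. The deposited values are not such CPM, since they sum to 5559394 to 7594840 per culture, which CPM would not, and their scaling factor and whether counting used strand are not given in the sources used here. Every nonzero value was a whole multiple of 1 factor per culture (100% whole within 0.1 read), so read counts could be recovered, 9140024 to 17998819 per culture. The columns of all samples were mapped by name, 0 were left over, and 9 rows whose symbol was split over 2 fields were rejoined.

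Values were tested as log2(value + 1) with limma 3.58.1 (R 4.3.3, trended empirical Bayes, two-sided) over genes at 0.5 or more in at least 4 fitted cultures, with Benjamini-Hochberg adjustment over all genes tested and a threshold of 0.05. Standard errors and 95% intervals are from these fits. Each line was fitted alone, the 12 low glucose cultures together for differences between lines, and all 24 for the interaction. The fits were also run on counts simulated with a single fixed spread between cultures, scaled by library total and without an outlying library. That setting does not cover the outlying HCC1500 library or the unstated scaling factor. Alternatives were pseudocounts of 0.1 and 5, no filter or a minimum of 5, CPM or median-of-ratios rescaling, the replicate number as a block, each culture left out, and the recovered reads under edgeR 4.0.16 and DESeq2 1.42.0. In HCC1500 edgeR called 3576 genes, DESeq2 4432 and limma 3350. In MDA-MB-175 they called 4402, 3929 and 4368, and in ZR-75-30 7397, 6585 and 7290.

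The members and gene lists were chosen with earlier results of these data known. Besides the members, the text names other keratins with a mean of at least 10 in a group, the 3 filament partners and the 3 regulators with the widest called change and no overlap in each line, those called alike in all 3 lines, TXNIP, and the 2 genes most correlated with each member (some items under these rules are not reported here). KRT83 and the marker genes CDH1, CNN1, COL1A1, LAMA3, CDH3, SPRR3, TGM3 and CD68, outside this rule, were named after their values were seen. Positions and transcript lengths are from GENCODE v44 lifted to GRCh37.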

Additional observations from a re-analysis of the deposited data

Results flagged for a closer look

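For independent groups, chance puts about 1 in 20 beyond Dixon's 95% critical value. Genes of the same library are not independent, so the count given next cannot be set against that rate. In 9 of the 55 groups of 4 cultures examined, the highest or lowest culture lay farther from the rest than this value allows. HCC1500 high glucose replicate 3 gave 4 of these, with normalized read counts of 634 for KRT7 (the others had 228 to 259), 13627 for KRT8 (6176 to 6237), 6712 for KRT18 (2486 to 2581) and 13814 for KRT19 (4773 to 5068). MDA-MB-175 high glucose replicate 1 was high for 3 genes, at 13182 for KRT18 (11853 to 12009.5), 13433 for KRT81 (11506 to 11769.8) and 6611 for KRT86 (5590.4 to 5747). ZR-75-30 high glucose replicate 4 was low for 2, at 3083 for KRT7 (3549 to 3625) and 12854 for KRT8 (15403 to 15529.6).

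The response to glucose differed between lines by the F test of the limma fit for 5 members, with an adjusted p of 0.0131 for KRT7, 0.0439 for KRT8, 0.000475 for KRT15, 4.00e-09 for KRT80 and 0.00102 for KRT86. The KRT8 value was lost without most single cultures.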

How the results depend on the processing

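The count of members called stayed at 8 in MDA-MB-175 and 7 in ZR-75-30 under all 9 alternatives that kept every culture. In HCC1500 the count of 1 became 3 with DESeq2 (KRT7 and KRT80 lower, KRT8 higher), 2 in edgeR, in CPM and under median-of-ratios scaling, and 0 with the replicate block, and the 5 members whose response differed between lines became 8 in CPM. Leaving out 1 culture at a time gave 6 to 8 members in MDA-MB-175, 7 throughout in ZR-75-30 and 0 to 5 in HCC1500. Replicate numbers are shared across groups in the labels. By their mean correlation, same-numbered cultures of a line did not deviate together (mean r of 0.018 in HCC1500, 0.050 in MDA-MB-175 and 0.042 in ZR-75-30, with 2, 1 and 1 of 4 numbers correlating best with themselves), so the numbers were not taken as pairs. In ZR-75-30, however, replicate 4 was lowest of its group at both glucose levels for KRT7, KRT8, KRT18 and KRT19. Whether the cultures were paired cannot be told from the labels. With the replicate block the adjusted p was 0.0977 for KRT80 in HCC1500 and 0.0518 for the KRT8 interaction. Signs turned, with no call on either side, for KRT8 in MDA-MB-175 (log2 difference -0.021 to 0.084 with 1 culture left out), KRT15 in HCC1500 (0.0017 with edgeR, 0.020 with DESeq2, -0.33 to 0.092 with 1 culture left out), KRT86 in HCC1500 (0.0051 with a pseudocount of 0.1, -0.45 to 0.11) and, between ZR-75-30 and HCC1500, KRT16 (0.12 with edgeR, 0.091 with DESeq2, -0.36 to 0.076) and KRT17 (-0.12 to 0.16). Signs turned into a call for KRT18 (-0.27 to 0.20) and KRT19 (-0.22 to 0.29) in HCC1500, both without high glucose replicate 3, and for KRT80 between MDA-MB-175 and ZR-75-30 in CPM (0.18). The cause was not tested. Over the members' single values, 582 results kept their direction and side of the threshold with all cultures kept, 16 gained and 3 lost the threshold and 6 turned, and with 1 culture left out these counts were 771, 7, 29 and 13. Differences in KRT16, KRT17, KRT81 and KRT86 outside MDA-MB-175 rest on few reads, a limit of depth.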
